A study of Homo sapiens with 14 samples.

Results

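The enzymes of lower glycolysis were followed here as 10 genes: ALDOA, ALDOC, TPI1, GAPDH, PGK1, PGAM1, ENO1, ENO2, LDHA and LDHB. They were taken by gene symbol from the 23106 symbols counted in each library, and all 10 were found and passed the filter on low counts in each comparison. Polyadenylated RNA was sequenced from 2 established human cell lines, PC3 from prostate cancer and HCT116 from colorectal carcinoma, each without a genetic change or drug. Normoxia was 21% O2 and hypoxia was 0.5% O2 for 16 h in a hypoxia chamber. There were 4 libraries of PC3 normoxia, 4 of PC3 hypoxia, 3 of HCT116 normoxia and 3 of HCT116 hypoxia, described in the study as biological replicates. PC3 was grown in DMEM/Hams F12 and HCT116 in McCoy's 5a medium, so that line and medium cannot be told apart. Only 1 oxygen level and 1 time point in hypoxia were sampled.

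Lower glycolysis begins where aldolase splits fructose bisphosphate, and continues through triose phosphate isomerase, glyceraldehyde phosphate dehydrogenase, phosphoglycerate kinase, phosphoglycerate mutase and enolase towards pyruvate. It is the stretch that yields ATP without oxygen, and lactate dehydrogenase then regenerates NAD+ by turning pyruvate into lactate. Several steps have isozymes from separate genes: ALDOA and LDHA are the forms typical of muscle, ENO1 is found in most tissues, ALDOC and ENO2 are known from brain, and LDHB is typical of heart. Many genes of the pathway are known targets of HIF (hypoxia-inducible factor), which binds a short DNA element with the core RCGTG, where R is A or G.

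The libraries held 71228454 to 150630928 counts. The lowest count of any of the 10 genes in any library was 1511, for ALDOC in PC3 normoxia replicate 3, so that counting error was small beside the spread between replicates. Epithelial markers were detected (median of 1 CPM or more) for 5 of 5 genes in every group. Among prostate luminal markers, HOXB13 and TMPRSS2 were detected in PC3, and KLK2 and KLK3 were not. Of 6 colon epithelium markers, CDX2 was the 1 detected in HCT116, and none was detected in PC3, so the tissue labels rest on few markers. None of 4 immune markers was detected, while COL1A1 was detected in both lines, LUM in PC3 normoxia and PECAM1 in PC3. PC3 and HCT116 were grown as cell lines, and the source of these RNAs was not tested. CPM below are counts relative to the library size, scaled by TMM over the 14 libraries, and are used to compare libraries for 1 gene. RPKM divide the CPM by the length of the canonical transcript in kilobases and are used to compare genes. In bulk RNA, a change in the number of cells that express a gene and a change in RNA per cell cannot be told apart.

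The sequences before the start sites of the isozyme pairs are shown because the ratio within each pair in hypoxia is followed below. Each line holds the 250 bases upstream of a RefSeq start site on GRCh38.p14, written 5′ to 3′ on the gene's strand. For ALDOA and LDHA, which have more than 1 annotated start site, the window with the most matches is printed. Capitals mark ACGTG or GCGTG on either strand. The palindrome CACGTG counts as a match on each strand.
ALDOA, chr16:30064247-30064496, plus strand: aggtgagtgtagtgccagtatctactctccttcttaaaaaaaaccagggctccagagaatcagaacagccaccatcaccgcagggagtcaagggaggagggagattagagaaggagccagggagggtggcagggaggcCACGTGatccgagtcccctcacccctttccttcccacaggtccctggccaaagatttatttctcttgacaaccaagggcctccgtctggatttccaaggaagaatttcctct
ALDOC, chr17:28576896-28577145, minus strand: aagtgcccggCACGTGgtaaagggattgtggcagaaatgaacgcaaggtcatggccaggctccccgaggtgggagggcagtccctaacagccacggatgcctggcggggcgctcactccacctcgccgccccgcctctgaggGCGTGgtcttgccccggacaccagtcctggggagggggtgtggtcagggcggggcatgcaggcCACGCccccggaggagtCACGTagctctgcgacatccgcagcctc
ENO1, chr1:8878687-8878936, minus strand: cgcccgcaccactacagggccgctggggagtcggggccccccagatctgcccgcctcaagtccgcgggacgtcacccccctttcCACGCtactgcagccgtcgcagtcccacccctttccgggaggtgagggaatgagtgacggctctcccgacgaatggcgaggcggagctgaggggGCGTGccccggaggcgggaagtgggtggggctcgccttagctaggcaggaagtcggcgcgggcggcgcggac
ENO2, chr12:6914330-6914579, plus strand: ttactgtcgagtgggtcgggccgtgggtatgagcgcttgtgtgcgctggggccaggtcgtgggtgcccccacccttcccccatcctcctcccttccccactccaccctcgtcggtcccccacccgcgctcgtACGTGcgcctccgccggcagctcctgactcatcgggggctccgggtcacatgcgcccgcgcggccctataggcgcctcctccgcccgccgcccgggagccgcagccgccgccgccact
LDHA, chr11:18394313-18394562, plus strand: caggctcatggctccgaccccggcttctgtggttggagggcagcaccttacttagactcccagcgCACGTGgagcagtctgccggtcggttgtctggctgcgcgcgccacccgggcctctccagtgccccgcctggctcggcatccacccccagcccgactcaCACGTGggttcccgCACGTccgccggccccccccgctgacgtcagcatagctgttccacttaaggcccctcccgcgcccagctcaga
LDHB, chr12:21657843-21658092, minus strand: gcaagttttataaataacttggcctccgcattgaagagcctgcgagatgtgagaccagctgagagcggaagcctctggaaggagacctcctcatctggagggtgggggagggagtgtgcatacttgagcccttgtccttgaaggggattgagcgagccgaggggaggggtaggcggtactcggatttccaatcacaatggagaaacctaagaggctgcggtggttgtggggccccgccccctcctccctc
LDHA held 5 ACGTG matches in the window shown, the nearest of them 73 bases upstream of the start. The window of its other start site held 0 ACGTG and 1 GCGTG. LDHB held no match to either motif. ALDOC held 3 ACGTG and 2 GCGTG, ALDOA 2 ACGTG in the window shown and 1 in each other window, ENO2 1 ACGTG and ENO1 2 GCGTG. Of all 14 windows annotated for the 10 genes, 9 held ACGTG and 11 held either motif. GAPDH and PGK1 each held 2 ACGTG, TPI1 held both motifs at 1 of its 2 start sites, and PGAM1 held neither. Among 35116 promoter windows of this length in the RefSeq table, 18.5% held ACGTG, 32.2% GCGTG and 43.2% either. The RefSeq start sites were not matched to the starts of the canonical transcripts used for RPKM. A window may therefore lie away from the start of that transcript or inside the gene. A match describes the letters in the window and not binding, and binding of HIF was not analysed here.

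In both lines, 9 of the 10 genes rose in hypoxia and LDHB was the 1 that was not called. In PC3 the 9 increases ranged from 1.34-fold for GAPDH to 2.27-fold for ENO2 in mean CPM. In HCT116 they ranged from 1.60-fold for GAPDH to 13.7-fold for ALDOC. The 10 genes together took 1.19% ± 0.0574 of the counts in PC3 normoxia (SD, n = 4) and 1.79% ± 0.246 in PC3 hypoxia (n = 4), or 1.69% ± 0.161 without hypoxia replicate 4. In HCT116 this share was 1.44% ± 0.0594 in normoxia and 2.69% ± 0.157 in hypoxia (n = 3 each).

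Calls were made with edgeR's quasi-likelihood test on the counts of all genes, with a Benjamini-Hochberg adjusted p under 0.05. In PC3, 9 of the 10 genes were called higher and 0 lower, where 6.03% of the 14309 genes tested were called higher and 5.29% lower (11.3% in either direction). In HCT116, 9 were again called higher and 0 lower, where 14.6% of 14120 genes were called higher and 11.3% lower (25.9% in either direction). The median log2 fold change of the 10 genes was 0.72 in PC3 and 1.32 in HCT116, beside 0.00 over all genes in each line. The libraries of the 2 conditions did not overlap for the same 9 genes in PC3, against 9.62% of all genes that were higher and 11.3% that were lower without overlap. In HCT116 the same 9 genes did not overlap, against 20.3% of all genes higher and 22.2% lower. Among all genes the split of calls in PC3 was 863 higher and 757 lower with TMM scaling, 681 and 1048 with upper-quartile scaling, and 562 and 1733 with scaling to the total count alone. In HCT116 it was 2061 and 1597 with TMM and 1286 and 3146 with the total count. The total count moved the median of all genes to -0.10 in PC3 and -0.09 in HCT116. With the replicate number as a block, which pairs the PC3 libraries, 4074 genes were called in PC3 in place of 1620, and the same 9 members remained higher.

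**Figure D1:**
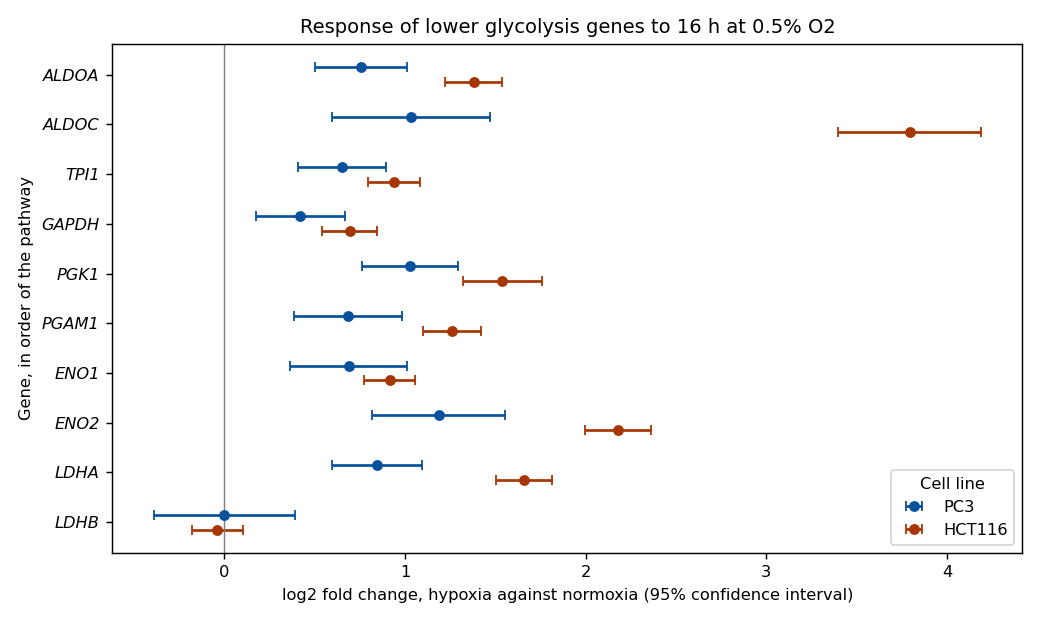
Log2 fold change of each gene in hypoxia against normoxia (horizontal axis) with its 95% confidence interval, in PC3 (blue) and HCT116 (brown), with genes in the order of the pathway from top to bottom. The intervals of 9 genes lie above 0 in both lines and those of LDHB span 0, and ALDOC in HCT116 stands furthest to the right at 3.79.

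**Figure D2:**
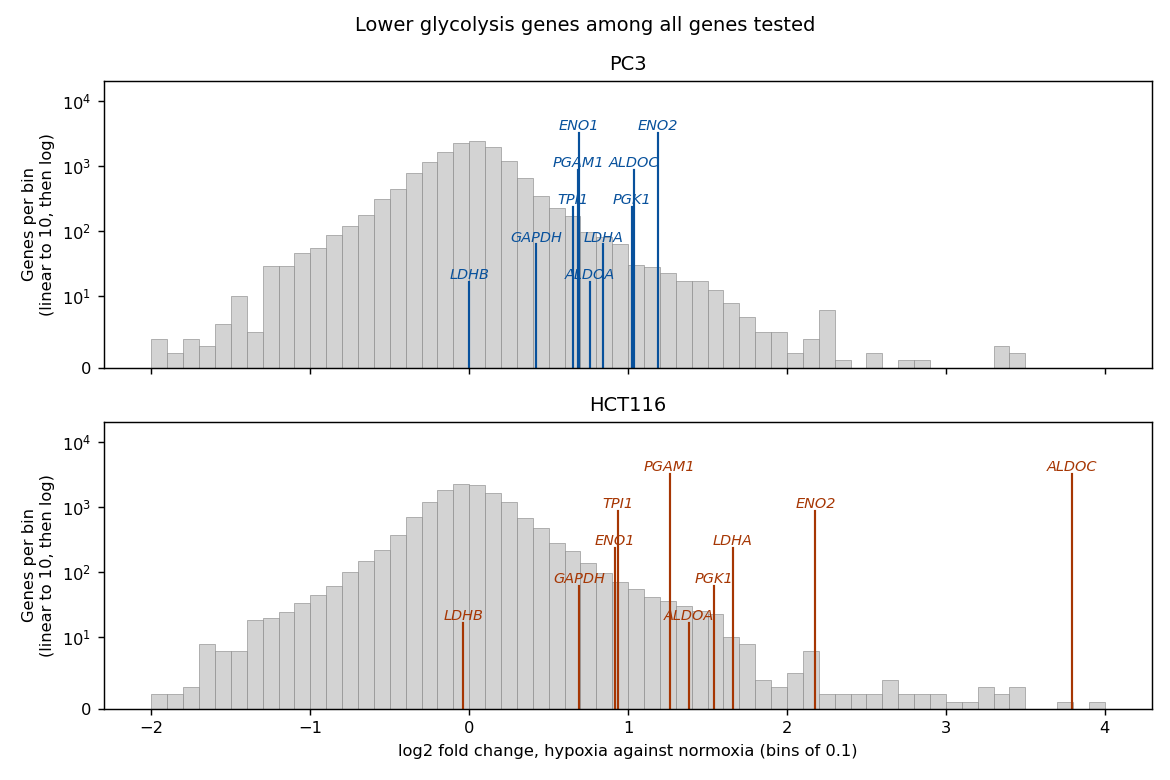
Histograms of the log2 fold change in hypoxia over all genes tested (grey, bins of 0.1, genes per bin on an axis that is linear to 10 and logarithmic above), with the 10 genes as vertical lines whose heights only separate the labels. In HCT116, ALDOC ranked 8 and ENO2 ranked 38 of 14120 genes by log2 fold change, and LDHB lies at the centre of the distribution in both lines.

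Aldolase splits fructose bisphosphate into the triose phosphates. ALDOA, the muscle form and the main aldolase of many cultured cells, lies on chromosome 16 at 30075485 to 30081778 (GRCh37, plus strand, 10 exons in the canonical transcript). Its CPM in PC3 normoxia were 1134, 1158, 1176 and 1071 in replicates 1 to 4, and in PC3 hypoxia 1623, 1913, 1751 and 2372. In HCT116 they were 1305, 1245 and 1151 in normoxia and 3129.8, 3371 and 3022 in hypoxia. Every hypoxia library lay above every normoxia library of its line, and hypoxia replicate 4 was the highest in PC3. edgeR gave a log2 fold change of 0.76 ± 0.11 in PC3 (SE, adjusted p = 0.00419) and 1.38 ± 0.07 in HCT116 (adjusted p = 1.85e-07).

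ALDOC, the brain form of aldolase, lies on chromosome 17 at 26900133 to 26903966 (GRCh37, minus strand, 9 exons). It was the least abundant of the 10 genes per length in normoxia in both lines. Its CPM were 19.8, 13.3, 14.6 and 14.9 in PC3 normoxia and 27.2, 29.8, 25.6 and 45.5 in PC3 hypoxia. In HCT116 the normoxia libraries held 11.9, 16.3 and 11.8 CPM and the hypoxia libraries 158, 236 and 154 CPM. The normoxia libraries of the 2 lines overlapped, while every hypoxia library of HCT116 lay above every hypoxia library of PC3. On the log2 scale hypoxia minus normoxia was 1.03 ± 0.20 in PC3 (adjusted p = 0.0116) and 3.79 ± 0.18 in HCT116 (adjusted p = 9.77e-08). Without PC3 hypoxia replicate 4 the value in PC3 was 0.82 (adjusted p = 0.00978). Exons of ALDOC overlap RSKR on the same strand and an unnamed gene on the opposite strand. Exons of ALDOA and LDHB overlap an unnamed gene on the same strand, and those of GAPDH on the opposite strand. None of these was counted under its annotated symbol, and how far their reads enter the counts was not tested.

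TPI1, triose phosphate isomerase, which interconverts the triose phosphates, lies on chromosome 12 at 6976283 to 6980112 (GRCh37, plus strand, 7 exons). Its CPM were 537, 589, 594 and 554 in PC3 normoxia and 745, 902, 826 and 1089 in PC3 hypoxia. Those of HCT116 were 1040.0, 1015 and 1014 in normoxia and 1899.5, 2064 and 1846 in hypoxia. There was no overlap in either line, and the SD in HCT116 normoxia was 14.8 CPM around a mean of 1023. The log2 fold change was 0.65 ± 0.11 in PC3 (adjusted p = 0.00724) and 0.94 ± 0.07 in HCT116 (adjusted p = 2.57e-06). Exons of TPI1 overlap SPSB2 on the opposite strand, and 23.7% of the 75-base stretches of its transcript occur elsewhere in the genome, so its count is less certain than those of genes without copies.

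GAPDH, the dehydrogenase that carries out the oxidation step and is widely used as a reference gene, lies on chromosome 12 at 6643678 to 6647540 (GRCh37, plus strand, 9 exons). Its CPM were 2837, 3066, 3195 and 2920.2 in PC3 normoxia and 3380.3, 3982, 3793 and 4897 in PC3 hypoxia. The HCT116 values were 4605, 4486 and 4122 in normoxia and 7102, 7436 and 6569 in hypoxia. The conditions did not overlap in either line, but the increase was the smallest among the 9 genes called. edgeR gave a log2 fold change of 0.42 ± 0.11 in PC3 (adjusted p = 0.0383) and 0.69 ± 0.07 in HCT116 (adjusted p = 5.74e-05). The call in PC3 was lost with upper-quartile scaling (adjusted p = 0.0532), the total count (0.0548) or no filter on low counts (0.0512). It was also lost without any 1 of the 4 normoxia libraries or of hypoxia replicates 2 and 3, with adjusted p between 0.064 and 0.105. GAPDH has 65 named pseudogenes in the annotation, and 3.80% of the 75-base stretches of its transcript occur elsewhere in the genome, beside 4.75% for LDHA, 3.93% for PGK1 and 1.23% for ENO1.

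PGK1, phosphoglycerate kinase, which makes ATP from bisphosphoglycerate, lies on chromosome X at 77166236 to 77384792 (GRCh37, plus strand, 11 exons in the canonical transcript). Its CPM were 1154, 1156, 1196 and 1022 in PC3 normoxia and 1832, 2410.3, 2223 and 2748 in PC3 hypoxia. In HCT116 they were 677, 694 and 763 in normoxia and 1993, 2343 and 1796 in hypoxia. PC3 lay above HCT116 in normoxia without overlap, while in hypoxia the libraries of the lines overlapped. On the log2 scale hypoxia minus normoxia was 1.03 ± 0.12 in PC3 (adjusted p = 0.00120) and 1.54 ± 0.10 in HCT116 (adjusted p = 1.16e-06).

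PGAM1, phosphoglycerate mutase, which moves the phosphate within phosphoglycerate, lies on chromosome 10 at 99185948 to 99193201 (GRCh37, plus strand, 4 exons). Its CPM were 482, 519, 523 and 507 in PC3 normoxia and 631, 813, 760.2 and 1051 in PC3 hypoxia. Those of HCT116 were 431, 424 and 429 in normoxia and 1021, 1091 and 934 in hypoxia. Conditions did not overlap in either line. The log2 fold change was 0.68 ± 0.13 in PC3 (adjusted p = 0.0127) and 1.26 ± 0.07 in HCT116 (adjusted p = 4.58e-07). Of the 75-base stretches of its transcript, 87.7% occur elsewhere in the genome, and 84.6% of the 100-base stretches, mostly on chromosomes 12 and X, so that its count and that of its retrocopy PGAM4 are uncertain. PGAM4 held 0.843 to 0.961 counts per 100 counts of PGAM1 in the PC3 libraries and 1.94 to 2.21 in those of HCT116.

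Enolase makes phosphoenolpyruvate. ENO1, the form found in most tissues, lies on chromosome 1 at 8921059 to 8939249 (GRCh37, minus strand, 12 exons). Its CPM were 1092, 1309, 1287 and 1216 in PC3 normoxia and 1468, 2026, 1860.1 and 2525 in PC3 hypoxia. The HCT116 values were 3388, 3394 and 3232 in normoxia and 6017, 6629 and 6032 in hypoxia. Every HCT116 library in normoxia lay above every PC3 library in either condition. edgeR gave a log2 fold change of 0.69 ± 0.14 in PC3 (adjusted p = 0.0170) and 0.92 ± 0.06 in HCT116 (adjusted p = 2.46e-06). The call in PC3 was lost without normoxia replicate 2 (adjusted p = 0.0514), 3 (0.0556) or 4 (0.0511) or hypoxia replicate 2 (0.0534).

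ENO2, the enolase known from neurons, lies on chromosome 12 at 7022909 to 7032861 (GRCh37, plus strand, 12 exons), 42796 bases beyond TPI1. Its CPM were 68.6, 45.2, 48.4 and 39.8 in PC3 normoxia and 130.4, 109, 112 and 108 in PC3 hypoxia. In HCT116 they were 37.0, 36.5 and 33.8 in normoxia and 148, 179 and 153 in hypoxia. In PC3, replicate 1 was the highest in each condition, where most other members were lowest in hypoxia. On the log2 scale hypoxia minus normoxia was 1.19 ± 0.16 in PC3 (adjusted p = 0.00303), the largest of the 10 in that line, and 2.18 ± 0.08 in HCT116 (adjusted p = 1.63e-08).

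Lactate dehydrogenase is a tetramer of LDHA and LDHB subunits. LDHA, the muscle form, lies on chromosome 11 at 18416107 to 18429972 (GRCh37, plus strand, 8 exons). Its CPM were 3068, 3474, 3491 and 3208 in PC3 normoxia and 4952, 6039, 5606 and 7121 in PC3 hypoxia. Those of HCT116 were 1618, 1626 and 1696 in normoxia and 5137, 5477 and 4791 in hypoxia. In normoxia every PC3 library was above every HCT116 library, and in hypoxia the lines overlapped. The log2 fold change was 0.85 ± 0.11 in PC3 (adjusted p = 0.00232) and 1.66 ± 0.07 in HCT116 (adjusted p = 4.22e-08).

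LDHB, the heart form, lies on chromosome 12 at 21788276 to 21910791 (GRCh37, minus strand, 8 exons in the canonical transcript). Its CPM were 229, 326, 322 and 337 in PC3 normoxia and 213, 314, 294 and 389 in PC3 hypoxia. The HCT116 values were 1468, 1599 and 1537 in normoxia and 1461, 1522 and 1449.5 in hypoxia. The conditions overlapped in both lines, while every HCT116 library lay far above every PC3 library. edgeR gave a log2 fold change of -0.00 in PC3 with a 95% interval of -0.39 to 0.39 (adjusted p = 0.999), and -0.04 in HCT116 with an interval of -0.18 to 0.10 (adjusted p = 0.695). These intervals leave room for a change of that size in either direction, and the sign in PC3 turned with the scaling and with the library left out (-0.14 to 0.13).

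**Figure D3:**
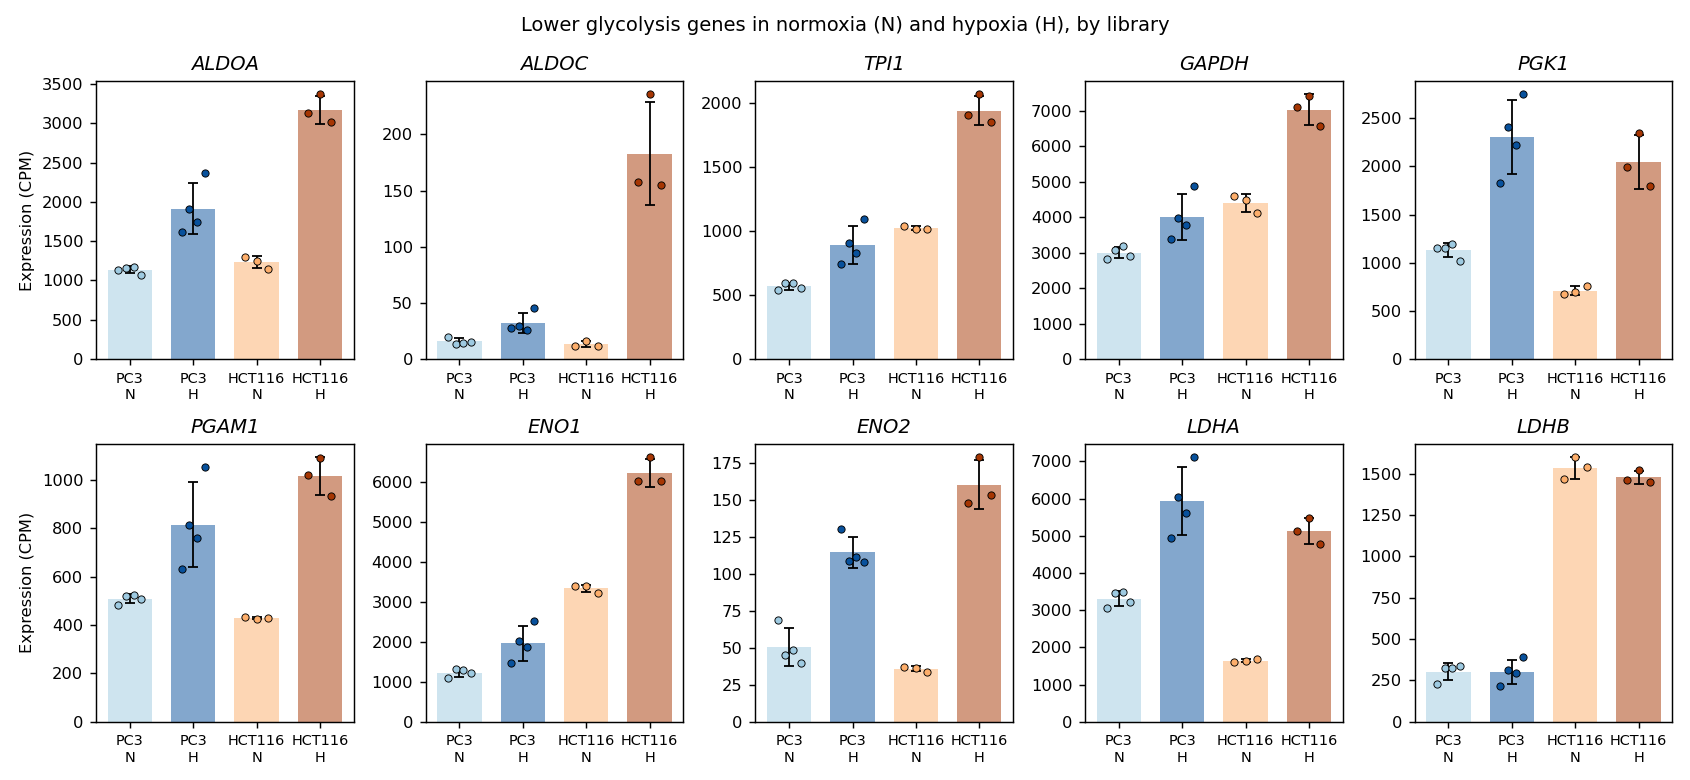
CPM (vertical axis of each panel, from 0) of each gene in normoxia (N) and hypoxia (H) of PC3 and HCT116. Points are libraries, bars their mean and error bars the SD (n = 4 in PC3, n = 3 in HCT116). LDHB is the panel in which the conditions overlap in both lines, and in PC3 hypoxia the spread is wider than in normoxia for most genes.

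In PC3 hypoxia, replicate 4 held the highest value of 9 of the 10 genes and replicate 1 the lowest of 8. In HCT116 hypoxia, replicate 2 was the highest for 10 of 10. The coefficient of variation in PC3 hypoxia was 15.4% for LDHA, 17.1% for ALDOA and 28.6% for ALDOC, against 6.25%, 4.03% and 18.3% in normoxia. Without PC3 hypoxia replicate 4, 9 genes were still called higher in PC3 (edgeR), with smaller log2 fold changes for 8 of them and 1.22 for ENO2.

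Per length, GAPDH was the most abundant of the 10 genes in each of the 4 groups, and ALDOC and ENO2 were the lowest. In PC3 normoxia, GAPDH stood at 2338 ± 123 RPKM and LDHA followed at 1477 ± 92.4, without overlap. ALDOA at 692 and ENO1 at 688 RPKM overlapped, and TPI1 (421), PGAM1 (282), PGK1 (235) and LDHB (233) came next, of which PGK1 and LDHB overlapped. ENO2 stood at 22.01 ± 5.49 and ALDOC at 9.73 ± 1.79 RPKM. In PC3 hypoxia the order was GAPDH, LDHA, ALDOA, ENO1, TPI1, PGK1, PGAM1, LDHB, ENO2 and ALDOC, from 3123 ± 499 to 19.9 ± 5.70 RPKM. There GAPDH overlapped LDHA, ALDOA overlapped ENO1, and TPI1, PGK1 and PGAM1 overlapped their neighbours.

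In HCT116 normoxia the order was GAPDH (3427 ± 196 RPKM), ENO1 (1874 ± 51.5), LDHB (1178 ± 50.4), TPI1 (757), ALDOA (752), LDHA (735), PGAM1 (238), PGK1 (148), ENO2 (15.6) and ALDOC (8.30). TPI1, ALDOA and LDHA overlapped their neighbours and the others did not. In HCT116 hypoxia LDHA moved above ALDOA and TPI1 to 2291 ± 153 RPKM, LDHB stood at rank 6 with 1134 ± 29.8, and ALDOC at 114 ± 28.6 stood above ENO2 at 69.8 ± 7.20. No neighbours overlapped there. PGAM1 and TPI1 have less certain levels and ranks in every group. Of the 75-base stretches of their transcripts, 87.7% and 23.7% occur elsewhere in the genome. The levels also depended on the length used. With the union of all annotated exons in place of the canonical transcript, the levels were lower for each gene, and 38 of the 40 gene and group means moved by more than their SD. In PC3 normoxia ALDOA then stood at 296 in place of 692 RPKM, ENO1 at 235 in place of 688 and PGK1, with the longest canonical transcript (4812 bases), at 208 in place of 235. The order of the genes changed in PC3, where PGK1 stood 6 in place of 7 in normoxia and 4 in place of 6 in hypoxia, and not in HCT116.

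**Figure D4:**
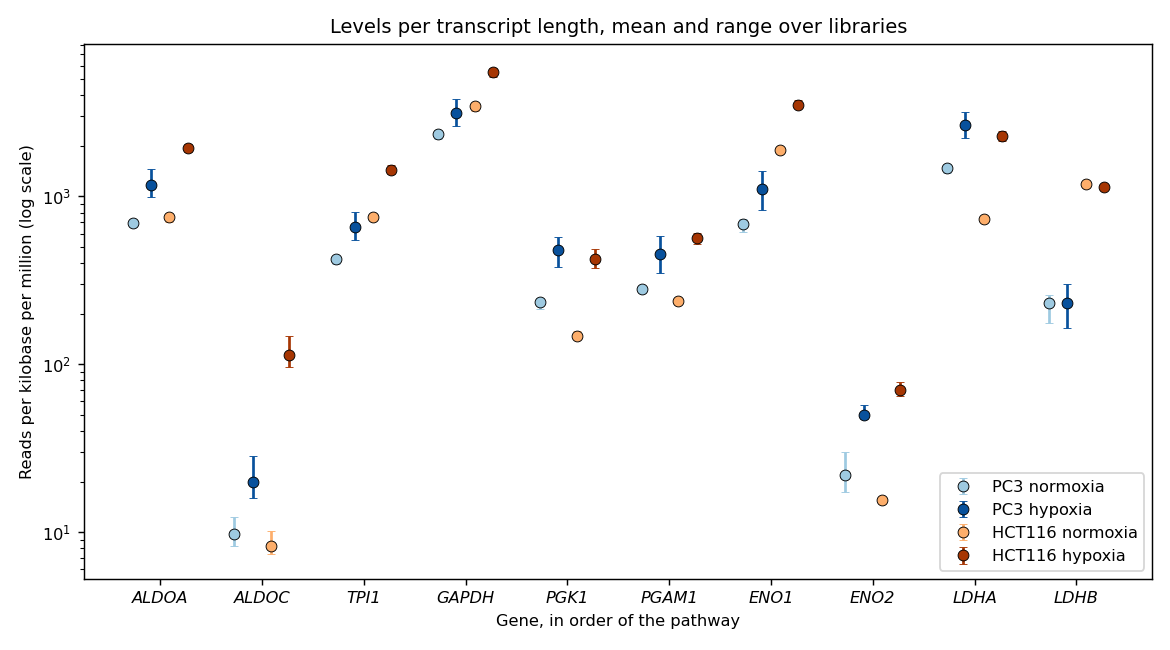
RPKM, the CPM per kilobase of canonical transcript (vertical axis, logarithmic), for each gene in the order of the pathway. Points are group means and error bars the lowest to highest library (n = 4 in PC3, n = 3 in HCT116). GAPDH lies highest in every group, ALDOC and ENO2 lowest, and LDHA and LDHB change places between the lines in normoxia.

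The balance of isozymes was measured as a ratio within each library, where the scaling of the library cancels. The ratios per length depend on the transcript lengths, while the log2 differences between conditions do not. With exon-union lengths the mean ratio in PC3 normoxia was 50.6 in place of 72.8 for ALDOA to ALDOC, 20.9 in place of 32.8 for ENO1 to ENO2 and 5.50 in place of 6.46 for LDHA to LDHB, and LDHA to LDHB in HCT116 was 0.532 in normoxia and 1.72 in hypoxia. Per length, ALDOA exceeded ALDOC 56.1-, 85.6-, 78.7- and 70.7-fold in the PC3 normoxia libraries and 58.5-, 62.9-, 67.1- and 51.1-fold in PC3 hypoxia. In HCT116 the ratio was 107, 75.02 and 95.5 in normoxia and 19.4, 14.02 and 19.2 in hypoxia. The conditions overlapped in PC3 and did not in HCT116, where ALDOC went from 1.09% ± 0.201 to 5.50% ± 1.00 of the aldolase pair. The log2 ratio differed by -0.27 ± 0.16 in PC3 (SE, exact permutation test, two-sided, p = 0.143, adjusted over 3 ratios 0.143). In HCT116 it differed by -2.40 ± 0.22 (exact p = 0.10, the smallest that 3 against 3 can give).

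ENO1 exceeded ENO2 20.5-, 37.3-, 34.3- and 39.3-fold in PC3 normoxia and 14.5-, 23.97-, 21.5- and 30.1-fold in PC3 hypoxia. In HCT116 the ratio was 118, 119.6 and 123 in normoxia and 52.3, 47.7 and 50.7 in hypoxia. In PC3 the ratio fell within each replicate number, from 4 normoxia values to 4 lower ones, but the groups overlapped, with replicate 1 the lowest in each condition. The log2 ratio differed by -0.55 ± 0.31 in PC3 (exact permutation test p = 0.143, adjusted 0.143) and by -1.26 ± 0.04 in HCT116 (exact p = 0.10, the smallest possible). ENO2 made up 0.825% ± 0.0183 of the enolase pair in HCT116 normoxia and 1.96% ± 0.0902 in hypoxia.

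For lactate dehydrogenase, LDHA exceeded LDHB 7.79-, 6.19-, 6.30- and 5.54-fold in PC3 normoxia and 13.5-, 11.2-, 11.1- and 10.6-fold in PC3 hypoxia. In HCT116 the ratio was 0.641, 0.591 and 0.642 in normoxia and 2.04, 2.09 and 1.92 in hypoxia. Thus LDHB was the more abundant form per length in every HCT116 normoxia library, at 61.6% ± 1.11 of the pair, and LDHA in every hypoxia library, with LDHB at 33.1% ± 0.978. In PC3, LDHB made up 13.6% ± 1.62 in normoxia and 7.99% ± 0.744 in hypoxia. The log2 ratio differed by 0.85 ± 0.13 in PC3 (exact permutation test p = 0.0286, the smallest that 4 against 4 can give, adjusted over 3 ratios 0.0857) and by 1.69 ± 0.05 in HCT116 (exact p = 0.10, the smallest possible). Neither line passed 0.05 after adjustment over its 3 ratios. With the PC3 libraries paired by replicate number, the exact permutation p was 0.125 for LDHA to LDHB and 0.125 for ENO1 to ENO2 (adjusted 0.1875 each), the smallest that 4 pairs can give, and 0.25 for ALDOA to ALDOC.

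**Figure D5:**
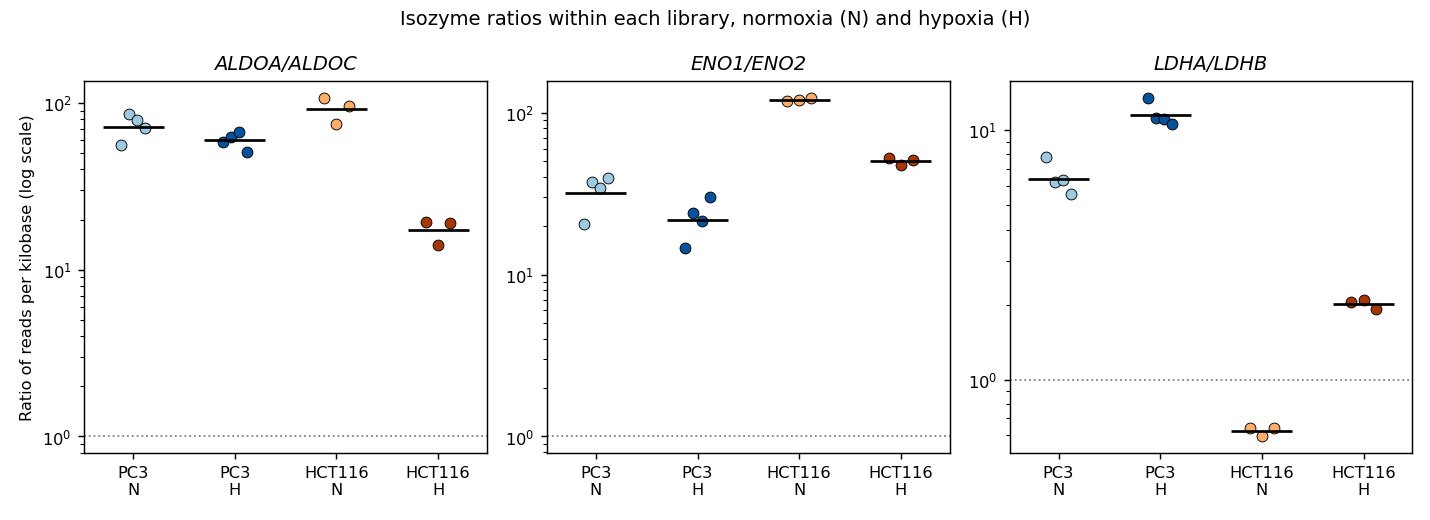
Ratio of reads per kilobase of ALDOA to ALDOC, ENO1 to ENO2 and LDHA to LDHB within each library (vertical axes, logarithmic), in normoxia (N) and hypoxia (H). Points are libraries, black lines the geometric means, and the dotted line a ratio of 1. LDHA to LDHB lies below 1 in the 3 HCT116 normoxia libraries and above 1 in the other 11.

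The difference of the response between the lines was tested as an interaction over the 14 libraries. Of the 10 genes, 3 rose less in PC3 than in HCT116 and 0 rose more, where 1.31% of 15493 genes were called lower and 1.01% higher (2.32% in either direction). ALDOC differed by -2.74 ± 0.30 on the log2 scale (PC3 minus HCT116, adjusted p = 0.00013), ENO2 by -0.98 ± 0.20 (adjusted p = 0.0200) and LDHA by -0.80 ± 0.15 (adjusted p = 0.0125). For ALDOA the difference was -0.61 ± 0.16 (adjusted p = 0.0548), for PGAM1 -0.56 ± 0.18 (0.118) and for PGK1 -0.50 ± 0.18 (0.162), which did not pass the threshold. TPI1 at -0.27, GAPDH at -0.26 and ENO1 at -0.21 had 95% intervals that reached from -0.59, -0.59 and -0.63 to 0.04, 0.08 and 0.20. LDHB differed by 0.05 (interval -0.44 to 0.54).

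These calls depended on the fit and on single libraries. With the replicate number as a block 5 genes were called, ALDOA (adjusted p = 0.0193) and PGAM1 (0.0247) being added, and DESeq2 also called 5. That block paired the libraries of both lines, although the check of pairing described below did not hold in HCT116. Without PC3 hypoxia replicate 4, in which 9 genes were highest, 7 were called, among them PGK1 (0.0431) and TPI1 (0.0431). ENO2 was no longer called without HCT116 normoxia replicate 2 (adjusted p = 0.0512) or 3 (0.0635) or hypoxia replicate 2 (0.0815).

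In normoxia the 10 genes differed between the lines in both directions. PC3 was higher than HCT116 for 3 genes and lower for 4, where 42.4% of all genes were called higher and 38.9% lower (81.3% in either direction), so the members' 7 calls of 10 are near the background. The libraries of the lines did not overlap for 4 genes higher and 4 lower in PC3, where 42.7% and 39.7% of all genes did not. LDHB was lower in PC3 by -2.34 ± 0.16 on the log2 scale (edgeR, adjusted p = 2.57e-09), ENO1 by -1.45 ± 0.14 (8.65e-08), TPI1 by -0.85 ± 0.10 (1.94e-06) and GAPDH by -0.55 ± 0.11 (0.000263). LDHA was higher by 1.01 ± 0.11 (5.81e-07), PGK1 by 0.67 ± 0.13 (0.000154) and ENO2 by 0.50 ± 0.14 (0.00524). ALDOA (-0.12), ALDOC (0.23) and PGAM1 (0.25, adjusted p = 0.0835) were not called, and PGAM1 passed with the total count (0.0142) and without PC3 hypoxia replicate 1 (0.0300) or 4 (0.0143). The median over all genes was 0.05 with TMM and 0.13 with the total count. Which of the sequencing platforms served which library is not given in the sources used here, so line and run cannot be told apart where they differed.

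The isozyme ratios of the lines were compared within each oxygen level, by an exact test that could not reach 0.05 with these group sizes. The ratio of LDHA to LDHB was 10.3-fold higher in PC3 than in HCT116 in normoxia and 5.72-fold higher in hypoxia. The ratio of ENO1 to ENO2 was 3.77-fold lower in PC3 in normoxia and 2.30-fold lower in hypoxia. That of ALDOA to ALDOC overlapped between the lines in normoxia and was 3.43-fold higher in PC3 in hypoxia. Except for the first of these aldolase comparisons (exact permutation p = 0.171), the libraries of the lines did not overlap. Each of the others gave 0.0571 in the exact permutation test (adjusted over 6 comparisons 0.0686). That is the smallest p of the two-sided form used, which doubles the smaller tail. The test can therefore not decide whether these ratios differ.

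The neighbouring steps of the pathway were read from lists of other genes. The counts below stand beside shares over all genes of 6.03% higher and 5.29% lower in PC3, and 14.6% and 11.3% in HCT116. Of 11 other lower glycolysis genes, 6 were tested in PC3 and 5 in HCT116, and in each line 2 were called higher and 0 lower: PKM, which encodes pyruvate kinase, and PGAM4. The exon of PGAM4 shares sequence with PGAM1 and overlaps the genes PGK1 and ATP7A on the opposite strand. Its call can therefore not be told apart from reads of those genes. PKM rose by 0.52 in PC3 (adjusted p = 0.00552) and by 0.93 in HCT116 (7.87e-06). The isozymes ENO3, GAPDHS and PGAM2 were tested and not called in either line. Of 10 upper glycolysis genes, 5 were called higher in each line and 0 lower: the hexokinases HK1 and HK2, the isomerase GPI, and the phosphofructokinase subunits PFKL and PFKP. HK2 rose by 1.00 in PC3 and 1.98 in HCT116. The median log2 fold change was 0.06 in PC3 and 0.34 in HCT116 for the other lower glycolysis genes and 0.36 and 0.94 for upper glycolysis, beside 0.00 over all genes.

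Of 8 genes for entry and exit of carbon, 4 were called higher in PC3 and 5 in HCT116, among them the glucose transporter SLC2A1 (1.24 and 2.12), the lactate exporter SLC16A3 (0.94 and 1.12) and the pyruvate dehydrogenase kinase PDK1 (0.72 and 2.99). PDK3 was called in both lines, and SLC2A3 in HCT116 alone (3.47), with 1.52 in PC3 (adjusted p = 0.164). MPC1, a subunit of the mitochondrial pyruvate carrier, fell by 0.34 in HCT116 and stood at 0.09 in PC3 (adjusted p = 0.831). Of 11 genes of the reverse path and side branches, 0 of 10 tested were called in PC3. In HCT116, G6PC3 and LDHD rose and BPGM, GPD1 and GPD1L fell, of 9 tested. The medians were 0.78 in PC3 and 1.34 in HCT116 for entry and exit and 0.04 and 0.00 for the reverse path and side branches.

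As GAPDH is used as a reference gene, 12 other common reference genes were examined in the same fits. In PC3, 0 were called higher and 1 lower (TFRC, -0.46), beside 6.03% and 5.29% of all genes, with a median log2 fold change of 0.10. In HCT116, 5 were called higher and 1 lower, beside 14.6% and 11.3% of all genes. The median there was 0.15, and the largest increase was that of TFRC (0.46). ACTB stood at 0.13 in PC3 (adjusted p = 0.57) and -0.03 in HCT116 (0.76), and PPIA at 0.14 (0.461) and -0.00 (0.987). The log2 fold change of GAPDH, 0.42 and 0.69, was above that of each of these 12 genes in its line.

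Across the 14 libraries, with each line's mean removed, the 9 genes that rose followed each other closely, with Pearson's r of 0.86 to 0.99 over their 36 pairs (median 0.97). With LDHB r ranged from -0.24 to 0.27 over 9 pairs. The values are a description, since the libraries share the contrast of hypoxia and normoxia. Among 13090 genes, the closest to LDHA was FAM115C, followed by ALDOA and BNIP3 (r = 0.99 each). The closest to ENO2 were INSIG2, KCTD11 and SLC2A1 (0.99 each), and to ALDOC BNIP3L (0.99), PDK1 (0.99) and TNIP1 (0.98). TPI1 was most like RAB20, GAPDH most like VKORC1, PGK1 most like GBE1, and ENO1 most like TPI1 (0.99 each). PGAM1 was most like PGAM4, with which it shares sequence, and LDHB most like ACAT1 (0.97), MRPS27 (0.97) and FAM101B (0.96).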

How the data were processed

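Polyadenylated RNA of 14 libraries was sequenced with paired-end reads of 75 or 100 bases. The authors aligned the reads with HISAT2 (2.05) to ERCC spike-ins and then to GRCh37, counted reads within RefSeq genes with HTSeq (0.5.4p3, intersection-strict), and deposited raw counts per gene. The strand setting, the RefSeq release and the treatment of reads with several matches are not given in the sources used here. ERCC reads were not used here, so that changes are relative to the mRNA pool.

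Counts were fitted with edgeR 4.0.16 in R 4.3.3 (filterByExpr, TMM, quasi-likelihood test, two-sided, Benjamini-Hochberg over all genes tested, threshold 0.05), for each line apart and, for the interaction and for the lines in normoxia, over all 14 libraries. Library depth was 71228454 to 150630928 counts, and any pair of replicates differed by more than counting error (chi-square per gene 12.5 to 268). The edgeR p-values set a difference against the spread between replicate libraries of these lines, and do not extend to other lines. The main fits held no replicate block. Isozyme ratios were compared by exact permutation tests (scipy 1.17.1). Likeness between genes was Pearson's r of log2 CPM (prior count 2). Alternatives were DESeq2 1.42.0, other scalings and filters, 1 fit over both lines, a replicate block, each library left out, and exon-union lengths, the last chosen after seeing the data, as was the share of counts without PC3 hypoxia replicate 4. Replicate numbers were taken to pair the libraries of a line where every same-number pair of deviations from the group means had r over 0.1. This held in PC3 (r = 0.832, 0.523, 0.345 and 0.413, against -0.583 to 0.360 between different numbers) and not in HCT116, where 1 of 3 pairs passed (0.0664, 0.373 and -0.0751). The pairing comes from the data and not from the labels. The replicate block was also fitted in HCT116 and, for both lines, in the interaction, where this condition was not met. On simulated data with 200 genes changed 2-fold, 199, 200, 192 and 199 were recovered for PC3, HCT116, the interaction and the lines, with 4, 12, 8 and 9 false calls among 14224, 14035, 15271 and 15271 genes. The simulated counts were drawn independently for each library, without an effect of the replicate number, and the changed genes were above a set mean CPM. These numbers check the code and do not measure power or false calls in the data.

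Gene positions and transcript lengths are from the GENCODE annotation lifted to GRCh37, and promoters from RefSeq on GRCh38.p14, matched by symbol for 10 of 10 genes. The 10 genes are always named, and genes of the other lists where called in either line, except that not all reference genes called in HCT116 are named. Members and lists were chosen with earlier results of these data known.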

Additional observations from a re-analysis of the deposited data

Results flagged for a closer look

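In the 28 groups of 4 PC3 libraries examined, a library stood apart from the other 3 in 2, where 1.4 are expected by chance at 1 in 20. LDHB was at 229 CPM in PC3 normoxia replicate 1, against 322 to 337 in the others, a gap of 0.868 of the range. ENO2 was at 130.4 CPM in PC3 hypoxia replicate 1, against 108 to 112, a gap of 0.842 of the range. Without that library, ENO2 in PC3 rose by 1.11 on the log2 scale (edgeR, adjusted p = 0.00614).

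The response to hypoxia differed between the lines in the edgeR interaction for ALDOC (PC3 minus HCT116, log2 -2.74), ENO2 (-0.98) and LDHA (-0.80). Hypoxia libraries were above normoxia libraries in both lines for all 3 genes, with log2 fold changes of 1.03 and 3.79 for ALDOC, 1.19 and 2.18 for ENO2, and 0.85 and 1.66 for LDHA in PC3 and HCT116.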

How the results depend on the processing

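Over the other settings and the libraries left out, the 140 values of members in HCT116 kept their direction and side of the threshold, as did 177 for the lines in normoxia, where 3 gained a call. For PC3 140 did, 13 lost a call and 7 changed sign, the last all of LDHB, near 0. For the interaction 175 did, 10 gained and 3 lost a call, and 2 changed sign, again of LDHB. The number of genes called in PC3 was 1620, and 2568 with DESeq2, 2465 in 1 fit over both lines, 4074 with the replicate block and 553 to 2085 with a library left out (574, 728, 553 and 908 without normoxia replicate 2, hypoxia replicate 2, normoxia replicate 3 and normoxia replicate 4). In HCT116 it was 3658, and 1733 in 1 fit over both lines. For the interaction it was 359, and 971 with DESeq2, 1306 with the replicate block and 177 to 717 with a library left out. Members with a smaller rise in PC3 numbered 3, and 5 with DESeq2, 5 with the replicate block and 2 to 7 with a library left out, the 7 without PC3 hypoxia replicate 4. The replicate block changed no other call of a member. In HCT116 and in the interaction it used a pairing that did not hold in HCT116. LDHB in PC3 was at 0.0072 with median-of-ratios scaling, 0.0088 with DESeq2 and between -0.14 and 0.13 with a library left out, and its interaction between -0.10 and 0.18. The cause was not tested. The fits with a library left out lower the number of samples. Depth did not limit these genes, whose lowest count was 1511.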
